A study of Mus musculus with 8 samples.

Results

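The genes described here encode the precursors of hypothalamic neuropeptides: Oxt, Avp, Crh and Trh of the paraventricular and supraoptic nuclei, Hcrt, Pmch and Cartpt of the lateral hypothalamus, Agrp and Ghrh of the arcuate nucleus, and the more widely expressed Gal. They were chosen by name, and a gene was measured where a probe set carries its symbol alone in the platform annotation. Of the 10 genes named, 7 had such a probe set, 1 each, among 12393 genes and 22626 probe sets tested on the array. Crh, Pmch and Agrp were not analysed here. Expression was compared between whole brains of SIRT1 brain-specific knockout mice (BSKO), which lack the NAD-dependent deacetylase SIRT1 in the brain, and those of wild-type littermates (WT). All mice were males of the strain C57/B6 aged 3 months, with 4 biological replicates per genotype, and each RNA was hybridised to its own Affymetrix Mouse430A_2 array. The driver of the deletion and the deleted part of Sirt1 are not given in the sources used here.

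Neuropeptides are cut from larger precursor proteins inside secretory granules, and many of their genes are transcribed in small, separate groups of hypothalamic neurons. Magnocellular neurons send oxytocin and vasopressin to the posterior pituitary, and thyrotropin-releasing hormone and growth hormone-releasing hormone reach the anterior pituitary through the portal blood. Hypocretin neurons of the lateral hypothalamus promote wakefulness, and CART and galanin peptides take part in feeding and arousal. In RNA from a whole brain, fewer cells of a type and less RNA per cell cannot be told apart.

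Expression was deposited on the log2 scale with the median of each probe set over the 8 arrays set to 0. Such values compare arrays for 1 gene but carry no level of expression, and cannot show which gene is more abundant, nor whether the markers of brain tissue are high. BSKO 2 stood apart: its SD over the tested probe sets was 0.831, against 0.222 to 0.314 on the other BSKO arrays and 0.150 to 0.220 on the WT arrays. The 5' minus 3' value of beta-actin, a sign of RNA integrity, was -2.44 on it, against -0.104 to 0.489 elsewhere. Results are given with and without it. Sirt1 itself differed by -0.50 (SE 0.31) between BSKO and WT (limma adjusted p = 0.549), and by -0.15 without BSKO 2 (adjusted p = 0.428).

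On BSKO 1 and BSKO 2 most neuropeptide precursors were high, and on BSKO 3 and BSKO 4 they were not. For 6 of the 7 genes, all but Avp, both BSKO 1 and BSKO 2 lay above each of the other 6 arrays, an arrangement found for 10% of all tested probe sets. Without BSKO 2, BSKO 1 was above the remaining arrays for 6 of 7 genes, against 16.9% of all probe sets. Both counts were chosen after the values were seen.

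**Figure D1:**
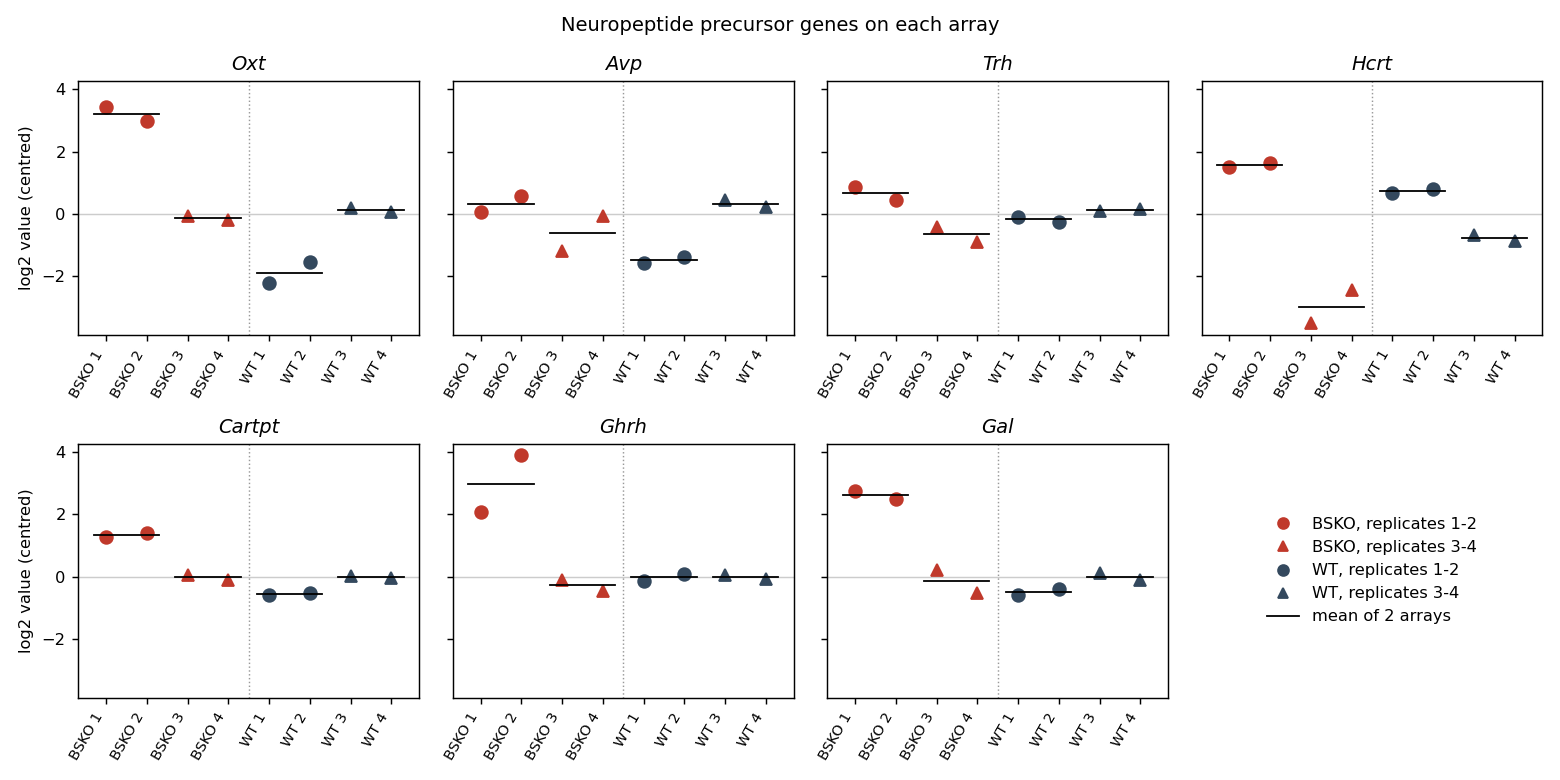
Log2 value (vertical axis, centred on 0 for each gene) on each of the 8 arrays (horizontal axis), BSKO in red and WT in blue. Circles are replicates 1 and 2, triangles replicates 3 and 4, and each short line is the mean of 2 arrays. Oxt, Gal and Ghrh were above 2 on BSKO 1 and BSKO 2 and below 0.3 on all other arrays.

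Over all 4 replicates per genotype none of the 7 genes passed the test. By limma with Benjamini-Hochberg adjustment over all probe sets, 0 of 7 had an adjusted p under 0.05, where 0.0309% of all tested probe sets did. Without BSKO 2 it was again 0 of 7, against 1.63%. At an unadjusted p under 0.05 there were 2, Oxt and Cartpt, both higher in BSKO, against 5.56% of all probe sets in that direction, and 0 without BSKO 2, where the share was 9.73%. The genotypes overlapped for each of the 7, while they did not overlap for 12.3% of all probe sets. The median difference of the 7 was 0.93, against 0.02 over all tested probe sets, and 0.51 against 0.01 without BSKO 2.

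Oxt, the oxytocin precursor, had the widest genotype difference in replicates 1 and 2. Its values were 3.42, 2.99, -0.05 and -0.20 on BSKO 1 to 4, against -2.22, -1.53, 0.19 and 0.05 on WT 1 to 4. BSKO 1 and 2 were the highest arrays and WT 1 and 2 the lowest, while replicates 3 and 4 of both genotypes lay near 0. Within replicates 1 and 2 the BSKO mean exceeded the WT mean by 5.08, a 33.9-fold ratio, and the 2 arrays of a genotype differed by 0.436 in BSKO and 0.685 in WT. Within replicates 3 and 4 the difference was -0.25. Over all 8 arrays it was 2.42 (SE 0.96, 95% interval 0.24 to 4.60, adjusted p = 0.430 by limma), with a mean of 1.54 ± 1.93 in BSKO and -0.88 ± 1.19 in WT (SD, n = 4 each). Without BSKO 2 it was 1.93 (adjusted p = 0.309).

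Avp, the vasopressin precursor and the neighbour of Oxt on chromosome 2, followed it in WT and less so in BSKO. It had 0.06, 0.58, -1.17 and -0.06 on BSKO 1 to 4, against -1.58, -1.37, 0.44 and 0.23 on WT 1 to 4. WT 1 and 2 were again the lowest, but BSKO 1 and BSKO 3 and 4 lay within the WT range, and BSKO 2 was only just above WT 3. The difference was 1.80 in replicates 1 and 2, -0.95 in replicates 3 and 4, and 0.42 over all arrays (SE 0.55, adjusted p = 0.732 by limma). Without BSKO 2 the overall value was 0.18 (adjusted p = 0.892), and leaving out 1 array in turn gave 0.087 (without WT 1) to 0.76 (without BSKO 3).

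The promoters of these neighbouring genes are shown because their values were low on the same WT arrays and unlike on BSKO 1. The windows run from 250 bases before to 50 bases after the start site in RefSeq's annotation of GRCm38.p6, Oxt at chr2:130575919-130576218 on the plus strand and Avp at chr2:130582539-130582838 on the minus strand. Each is printed 5' to 3' on its gene's strand. Capitals mark the nuclear receptor half-site AGGTCA and the core ACGTG, which SIM1 with ARNT2 can bind, each searched on both strands.
Oxt: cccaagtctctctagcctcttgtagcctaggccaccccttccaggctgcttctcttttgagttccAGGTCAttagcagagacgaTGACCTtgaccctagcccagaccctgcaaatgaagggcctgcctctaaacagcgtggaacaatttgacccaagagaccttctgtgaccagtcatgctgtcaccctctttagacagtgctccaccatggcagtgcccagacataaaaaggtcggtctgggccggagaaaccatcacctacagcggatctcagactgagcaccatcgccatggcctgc
Avp: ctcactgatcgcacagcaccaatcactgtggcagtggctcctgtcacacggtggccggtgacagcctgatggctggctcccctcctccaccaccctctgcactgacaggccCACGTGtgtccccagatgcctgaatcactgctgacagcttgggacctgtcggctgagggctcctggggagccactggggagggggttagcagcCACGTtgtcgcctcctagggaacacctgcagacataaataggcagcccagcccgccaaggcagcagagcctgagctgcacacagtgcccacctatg
The Oxt window held the half-site at -185 and, on the other strand, at -166 from the start, and no ACGTG. The Avp window held no AGGTCA and 3 matches to ACGTG, 2 of which overlap in the palindrome CACGTG at -139. AGGTCA occurs in 16.3% and ACGTG in 19.6% of all 32851 windows that RefSeq's annotation gave. A match is a description of the sequence and was not tested for binding.

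Trh encodes the precursor of thyrotropin-releasing hormone, which drives the thyroid axis. Its values were 0.88, 0.46, -0.43 and -0.88 on BSKO 1 to 4, against -0.09, -0.24, 0.09 and 0.17 on WT 1 to 4. The BSKO arrays lay on both sides of the narrow WT range, so that the difference was 0.83 in replicates 1 and 2 and -0.79 in replicates 3 and 4. Over all arrays it was 0.02 (SE 0.36, adjusted p = 0.978 by limma), with a 95% interval of -0.79 to 0.84. The overall value changed sign with the setting and was -0.13 without BSKO 2.

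Hcrt, the hypocretin precursor of lateral hypothalamic neurons, separated replicates 1 and 2 from 3 and 4 in both genotypes. It had 1.50, 1.62, -3.51 and -2.44 on BSKO 1 to 4, against 0.67, 0.81, -0.67 and -0.87 on WT 1 to 4. Replicates 1 and 2 were higher by 4.54 in BSKO and by 1.51 in WT, which made Hcrt the 1 gene of the 7 that was high on WT 1 and 2. With genotype as a term, replicates 1 and 2 exceeded 3 and 4 by 3.02 (SE 0.59, adjusted p = 0.227 by limma) and by 2.70 without BSKO 2 (adjusted p = 0.119). With 8 arrays 0 of the 7 genes passed this comparison of pairs, against 0.0707% of all probe sets, and 0 without BSKO 2, against 0.773%. After quantile normalization the difference for Hcrt was 3.22 and passed (adjusted p = 0.00210). The genotype difference was 0.82 in replicates 1 and 2, -2.21 in replicates 3 and 4 and -0.69 over all arrays (SE 1.18, adjusted p = 0.791). Without BSKO 3 this overall value changed sign to 0.24.

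Cartpt, which encodes the precursor of the feeding-related CART peptides in the lateral hypothalamus and elsewhere, had gaps of 0.050 to 0.145 between the 2 arrays of each pair. Its values were 1.28, 1.41, 0.05 and -0.10 on BSKO 1 to 4, against -0.57, -0.51, 0.03 and -0.03 on WT 1 to 4. BSKO 1 and 2 were the highest, WT 1 and 2 the lowest, and the other 4 arrays lay within 0.1 of 0. The difference was 1.88 in replicates 1 and 2, a 3.68-fold ratio, and -0.02 in replicates 3 and 4. Over all arrays it was 0.93 (SE 0.37, 95% interval 0.09 to 1.77, adjusted p = 0.429 by limma), and 0.68 without BSKO 2 (adjusted p = 0.297).

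Ghrh, the growth hormone-releasing hormone precursor of the arcuate nucleus, stood out on BSKO 1 and 2 alone. It had 2.06, 3.89, -0.09 and -0.45 on BSKO 1 to 4, against -0.12, 0.09, 0.07 and -0.07 on WT 1 to 4. WT arrays spanned 0.213, and BSKO 1 and 2 stood clear of them, though they differed from each other by 1.83. The difference was 2.99 in replicates 1 and 2 and -0.27 in replicates 3 and 4. Over all arrays it was 1.36 (SE 0.85, adjusted p = 0.554 by limma). It was 0.51 without BSKO 2 (adjusted p = 0.626), the array with the highest value.

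Gal, the galanin precursor, had 2.75, 2.50, 0.22 and -0.52 on BSKO 1 to 4, against -0.58, -0.40, 0.12 and -0.12 on WT 1 to 4. The first 2 BSKO arrays were far above the other 6, which lay between -0.58 and 0.22. The difference was 3.11 in replicates 1 and 2, an 8.66-fold ratio, and -0.15 in replicates 3 and 4. It was 1.48 over all arrays (SE 0.70, 95% interval -0.12 to 3.08, adjusted p = 0.485 by limma) and 1.06 without BSKO 2 (adjusted p = 0.416).

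Gal and Cartpt are shown with their promoters because they came next after Oxt among the 7 genes in the test of replicate pairs described below. The windows, from the same RefSeq table, lie at chr19:3414495-3414794 for Gal and at chr13:99900634-99900933 for Cartpt, both on the minus strand. Capitals mark the cAMP response element TGACGTCA or its core TGACG.
Gal: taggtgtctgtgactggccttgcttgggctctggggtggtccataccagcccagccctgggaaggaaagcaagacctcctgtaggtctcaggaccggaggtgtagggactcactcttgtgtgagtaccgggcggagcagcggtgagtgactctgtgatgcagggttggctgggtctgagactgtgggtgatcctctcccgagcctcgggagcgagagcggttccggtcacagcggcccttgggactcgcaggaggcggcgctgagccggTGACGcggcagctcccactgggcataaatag
Cartpt: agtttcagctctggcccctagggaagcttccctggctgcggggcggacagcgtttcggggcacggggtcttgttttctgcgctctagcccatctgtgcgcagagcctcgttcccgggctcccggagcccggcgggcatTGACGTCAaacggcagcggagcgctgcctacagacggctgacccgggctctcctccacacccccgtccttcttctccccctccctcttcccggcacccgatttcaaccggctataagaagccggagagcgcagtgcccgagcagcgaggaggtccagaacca
The Cartpt window held the complete palindromic element at -112, which 1.79% of all windows hold, and the Gal window held the core at 19 bases after the start, which 20.8% hold. Neither window held AGGTCA or ACGTG.

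The question that these values raise is whether the genotype difference in replicates 1 and 2 differed from that in replicates 3 and 4, which was tested as an interaction in limma. Oxt passed over all probe sets: its genotype difference was larger by 5.33 in replicates 1 and 2 (SE 0.37, 95% interval 4.45 to 6.21, adjusted p = 0.0236). It was 1 of 7 genes, where 0.0177% of all probe sets passed, and it had rank 3 by p among the 22626. The other 3 probe sets that passed were those of Lcn2 (-5.24), Lhx8 (5.05) and Chodl (2.22), named after their values were seen. Of these, Lhx8 is a transcription factor gene of forebrain cholinergic neurons. Cartpt (1.91, SE 0.19, adjusted p = 0.109) and Gal (3.26, SE 0.37, adjusted p = 0.158) had ranks 7 and 9 and missed the threshold.

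The other genes had interaction values of the same sign: 3.03 for Hcrt (adjusted p = 0.322), 2.74 for Avp (adjusted p = 0.493), 3.26 for Ghrh (adjusted p = 0.705) and 1.62 for Trh (adjusted p = 0.493). All 7 had an unadjusted p under 0.05 in the higher direction, where 2.15% of all probe sets did. Without BSKO 2, with BSKO 1 as the lone array of its pair, 4 of 7 passed against 0.186% of all probe sets. These were Oxt (5.55, adjusted p = 0.00711), Cartpt (1.84, adjusted p = 0.0201), Ghrh (2.35, adjusted p = 0.0375) and Gal (3.39, adjusted p = 0.0478). Without BSKO 1, with BSKO 2 alone, the values were 1.41 for Trh to 5.11 for Oxt. A lone array is assumed in these fits to vary like the others. The call of Oxt was lost when WT 1, WT 2, WT 3, WT 4, BSKO 3 or BSKO 4 was left out (adjusted p = 0.0742 to 0.335), with a value of 4.99 to 5.67. After quantile normalization the value of Hcrt was 0.45, while that of Oxt was 4.21 (adjusted p = 0.0467). In replicates 1 and 2 the BSKO mean was above the WT mean for 7 of 7 genes, against 53.4% of all probe sets, and in replicates 3 and 4 for 0 of 7, against 50.6%. The labels do not call the pairs of replicates batches, and what set them apart was not tested.

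**Figure D2:**
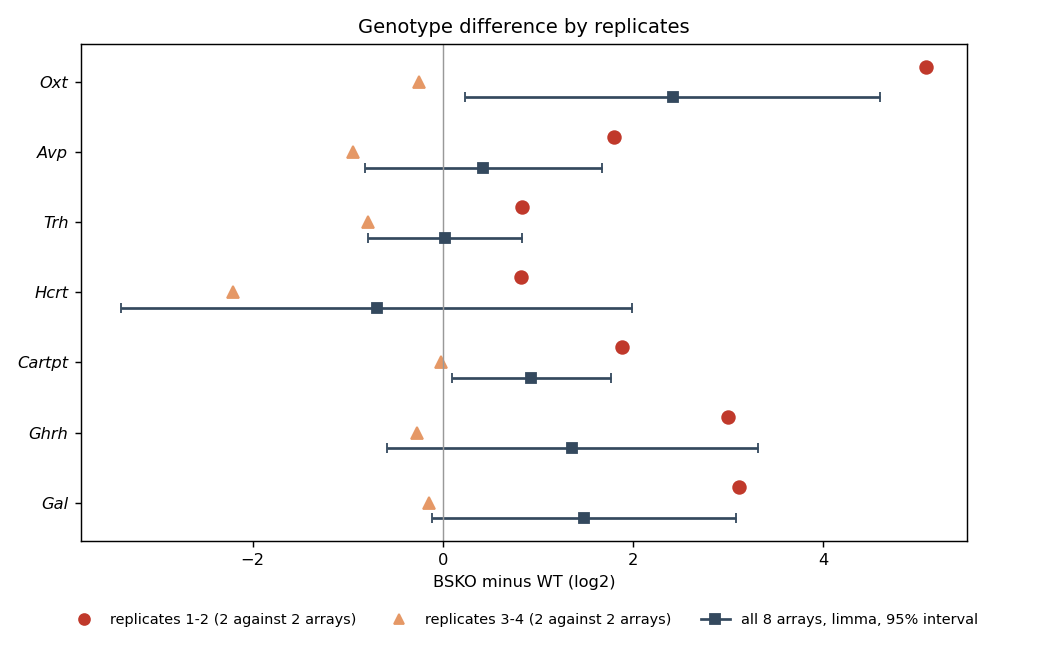
Difference of BSKO minus WT on the log2 scale (horizontal axis) for each gene (vertical axis), within replicates 1 and 2 (circles), within replicates 3 and 4 (triangles) and over all 8 arrays (squares, with the 95% interval of limma). All 7 circles lie right of 0, at 0.82 to 5.08, and all 7 triangles left of it, at -2.21 to -0.02.

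Which nuclei varied together was read from the means of the pairs of arrays. The arrays fell into clusters, with correlations over all probe sets of 0.202 between BSKO 1 and 2, 0.361 between BSKO 3 and 4, 0.700 between WT 1 and 2 and 0.472 between WT 3 and 4, against at most 0.0749 between arrays of different pairs. A correlation between members across the 8 arrays would mix these clusters, so none is given between them, and co-variation within a cluster of 2 arrays cannot be tested. In BSKO, replicates 1 and 2 lay above replicates 3 and 4 for 7 of 7 genes, by 0.93 for Avp to 4.54 for Hcrt. The same holds for 23% of all probe sets. In WT, replicates 1 and 2 lay below 3 and 4 for 5 of 7 genes, again against 23% of all probe sets: Oxt by -1.999, Avp by -1.81, Cartpt by -0.54, Gal by -0.49 and Trh by -0.29. Ghrh did not separate the WT pairs (-0.02), and Hcrt went the other way. The paraventricular and supraoptic genes Oxt, Avp and Trh had the same direction between the pairs as Gal and lateral hypothalamic Cartpt in both genotypes. Hcrt, also of the lateral hypothalamus, had it in BSKO and the opposite one in WT. The measured genes of the lateral hypothalamus thus did not go together in WT. These directions are a description, with no test. The nuclei are those by which the genes were grouped, and RNA of whole brains does not show where in the brain a gene was expressed.

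For Hcrt, Oxt and Gal, the 3 members with the largest SD over the 7 arrays without BSKO 2, the genes with the most similar values were searched over those arrays, among 6049 probe sets with an SD of at least 0.2. For Oxt these were Sstr5, a somatostatin receptor gene (Pearson r = 0.987), Gast, the gastrin precursor (0.979), and Cacng5 (0.974). Only 5 probe sets had r over 0.95 with Oxt. With BSKO 2 included r was 0.879 for Sstr5, 0.783 for Gast and 0.267 for Cacng5. For Hcrt they were Tspan33 (0.998), Enah (0.996) and Calb2, the calretinin gene (0.990), among 46 with r over 0.95. With BSKO 2 included r was 0.928 for Tspan33, -0.0437 for Enah and 0.978 for Calb2. For Gal they were Spa17 (0.986), Crygn (0.984) and Mtarc1 (0.983), among 29. With BSKO 2 included r was 0.962 for Spa17, 0.970 for Crygn and 0.913 for Mtarc1. These values describe likeness over arrays that fall into pairs, with no test.

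Among other neuropeptide precursors of the hypothalamus, Npvf, the RFamide-related peptide precursor, was high on BSKO 1 and 2, as Oxt and Gal were, but not low on WT 1 and 2. It had 2.78, 2.17, -0.13 and -0.17 on BSKO 1 to 4, against 0.08, 0.17, -0.08 and -0.15 on WT 1 to 4. Its interaction value was 2.38 (adjusted p = 0.239 by limma) with 8 arrays. Without BSKO 2, with BSKO 1 as the lone array of its pair, it was 2.69. Penk, an opioid precursor gene that striatal neurons also express, had 1.40 in that fit and was lowest on WT 1 and 2. Both probe sets of Pomc, the precursor of melanocortins, were also highest on BSKO 1 and 2, with a difference in those replicates of 1.57 and 2.13. Of 21 such precursors 16 were measured, on 19 probe sets, and 0 passed the genotype test with or without BSKO 2. The smallest p values were those of Pdyn (1.61, adjusted p = 0.364), Tac1 (0.62, adjusted p = 0.371) and Nucb2 (0.23, adjusted p = 0.408). On 5 of the 19 probe sets (26.3%) BSKO 1 and 2 lay above the other 6 arrays, against 10% of all probe sets.

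Transcription factor genes that mark hypothalamic neurons or their development had a median difference of 0.40 in replicates 1 and 2 and 0.04 in replicates 3 and 4, against 1.88 and -0.27 for the 7 precursors and 0.04 and 0.003 over all probe sets. Of 22 named, 19 were measured on 28 probe sets. The medians of replicates 1 and 2 include BSKO 2. Over all 8 arrays the median genotype difference of the 28 probe sets was 0.27, and without BSKO 2 it was 0.08. With 8 arrays 0 passed the genotype or interaction test, and without BSKO 2 0 passed the genotype test. In the comparison of replicate pairs without BSKO 2, 1 of the 28 passed, against 0.773% of all probe sets. This was Lhx1 (0.71, adjusted p = 0.0400 by limma), whose other probe set had 1.76 (adjusted p = 0.105). BSKO 1 and 2 lay above the other 6 arrays on 11 of the 28 probe sets, of 9 genes (Sim1, Otp, Rax, Isl1, Six6, Hmx2, Nr5a1, Foxb1 and Gsx1), against 10% of all probe sets. Without BSKO 2, BSKO 1 did so on 15 of 28, against 16.9%. Isl1, a LIM homeodomain factor of arcuate neurons that the striatum also expresses, had 0.65, 0.80, 0.48 and 0.22 on BSKO 1 to 4, against -1.46, -1.70, -0.22 and -0.40 on WT 1 to 4. It did not overlap between genotypes on either of its probe sets, as on 12.3% of all probe sets. Its difference was 1.48 (SE 0.34, adjusted p = 0.203) on this probe set, and 1.33 on the other (adjusted p = 0.306). Nr5a1, the SF-1 factor of the ventromedial hypothalamus, differed by 0.55 (adjusted p = 0.438) on 1 probe set. On its other probe set the difference was 0.31 (adjusted p = 0.596), and 0.06 without BSKO 2.

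**Figure D3:**
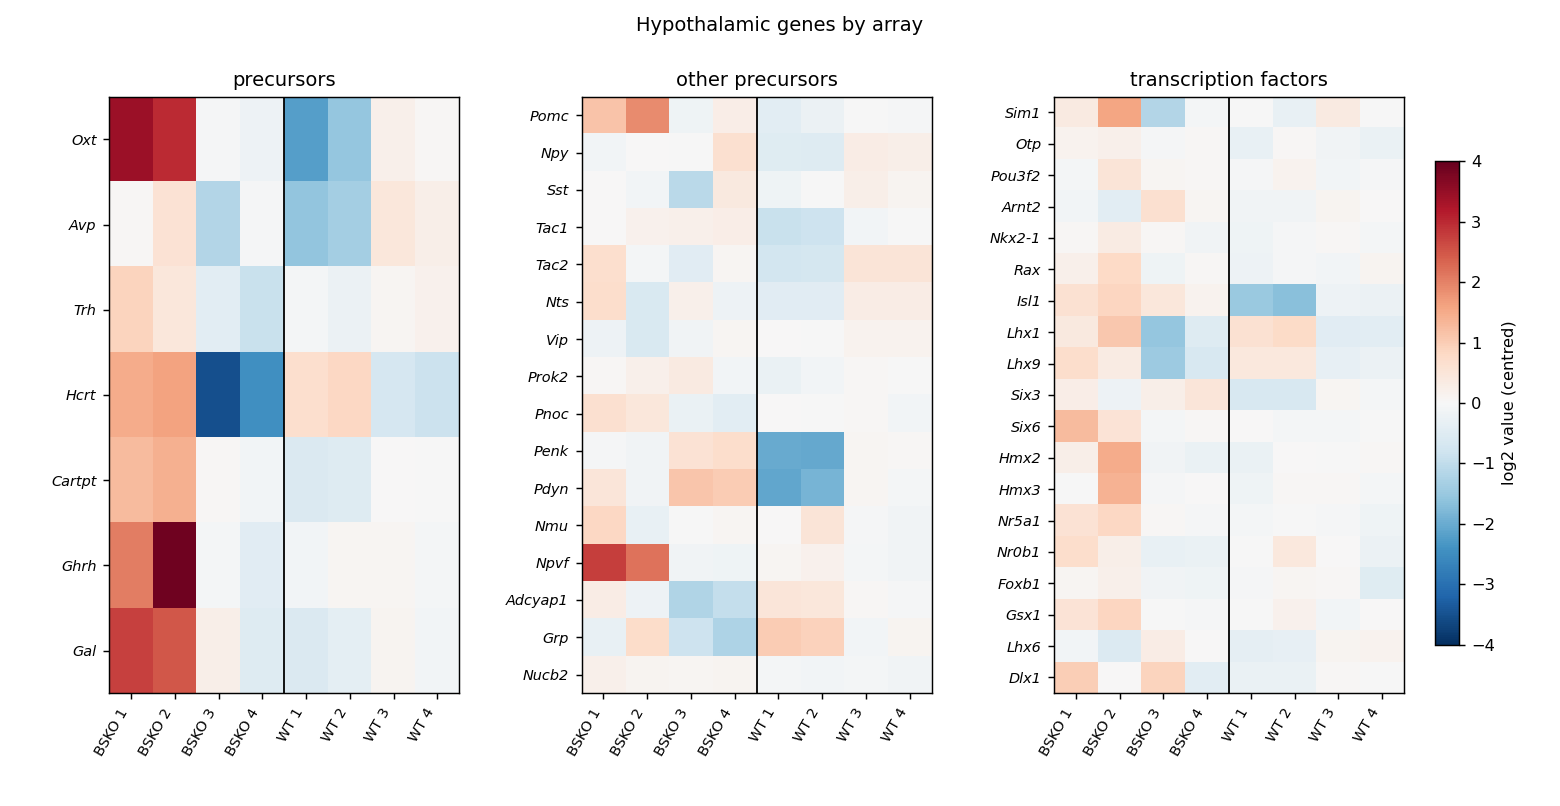
Log2 values centred on 0 (colour) on the 8 arrays (columns, BSKO left of the line and WT right of it) for the 7 neuropeptide precursors, the 16 other precursors and the 19 transcription factors measured (rows, averaged over the probe sets of a gene). Oxt, Ghrh, Gal and Npvf are darkest on BSKO 1 and BSKO 2, and Penk and Pdyn are lowest on WT 1 and WT 2.

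The genes for cutting and storing the peptides gave no call. Of 11 genes for prohormone processing and granule proteins 10 were measured on 11 probe sets, 0 passed, and BSKO 1 and 2 lay above the other arrays on 0 of them. The median difference was -0.003, and the smallest p values were those of the amidating enzyme gene Pam (-0.66, adjusted p = 0.362), the convertase gene Pcsk1 (-0.38, adjusted p = 0.524) and Chgb (-0.24, adjusted p = 0.572). Among receptors of the peptides, 13 of 17 genes were measured on 18 probe sets and 0 passed with 8 arrays. Trhr, the receptor of thyrotropin-releasing hormone, had -0.41, -1.38, -1.45 and -1.64 on BSKO 1 to 4, against 0.85, 0.72, 0.41 and 0.44 on WT 1 to 4. The genotypes did not overlap on this probe set, as on 12.3% of all probe sets. It differed by -1.82 (SE 0.26, adjusted p = 0.0654 by limma). Without BSKO 2 it fell (-1.77, adjusted p = 0.0302), against 1.63% of all probe sets called in either direction. The genotypes did not overlap on its other probe set either, where the difference was -0.72 (adjusted p = 0.226). Trhr2 differed in the other direction, by 0.52 (adjusted p = 0.233), also without overlap. Of 10 receptor and signal genes through which hormones reach these neurons, 9 were measured on 19 probe sets and 0 passed. The leptin receptor gene Lepr (-1.15, adjusted p = 0.330), Npy5r (-0.64, adjusted p = 0.423) and Npy1r (-0.42, adjusted p = 0.478) had the smallest p values. The 3 genes for binding and breakdown of the peptides were not analysed here.

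Markers of other brain regions and tissues also differed between the pairs of arrays. The 4 measured of 8 striatal marker genes had a median of 0.10, 0.18, 1.28 and 1.25 on BSKO 1 to 4, against -1.79, -1.70, -0.06 and -0.21 on WT 1 to 4. They were low on WT 1 and 2, where Oxt and Avp were low, and high on BSKO 3 and 4, where Hcrt was low. In the comparison of replicate pairs 3 of their 7 probe sets passed with 8 arrays, against 0.0707% of all probe sets. Without BSKO 2 it was 6 of 7, against 0.773%, each time lower in replicates 1 and 2. The 5 dopamine neuron markers measured of 6 had medians of -0.00, -0.03, -1.14 and 0.41 in BSKO, against 1.78, 1.28, -0.15 and -0.11 in WT. The 5 thalamic markers measured of 6, of which Calb2 is 1, had 0.32, -0.05, -0.99 and -0.54 in BSKO, against 0.31, 0.31, -0.01 and -0.11 in WT. Like Hcrt, they were lowest on BSKO 3 and 4. BSKO 1 and 2 lay above the other 6 arrays on 4 of their 11 probe sets, against 10% of all. These 4 were of Tcf7l2 and Calb2, and Calb2 was named above for its likeness to Hcrt over these same arrays. In replicates 1 and 2 the BSKO mean was above the WT mean on 5 of the 11, with a median difference of -0.08. The 8 meningeal markers had -0.51, -0.57, -0.35 and -0.22 in BSKO, against 0.76, 0.74, 0.17 and 0.21 in WT. Without BSKO 2, 2 of their 18 probe sets, both of Ogn, fell, against 1.63% of all probe sets called in either direction. Without BSKO 2, with BSKO 1 as the lone array of its pair, the median interaction value of the 18 probe sets was -1.39, opposite in sign to the precursors. On the 4 of 6 probe sets of Fmod with the smallest p in that fit it was -1.89 to -1.68. These 4 belong to 1 gene of the 8.

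The posterior and anterior pituitary lie below the hypothalamus, so pituitary markers were read too. Of 10 named, 8 were measured, Pomc among them, with medians of -0.02, 0.63, -0.09 and 0.08 in BSKO, against -0.06, -0.10, 0.01 and 0.03 in WT. Prl, the prolactin gene, had -0.29, 0.17, -0.25 and 0.37 on BSKO 1 to 4, against -0.22, -0.17, 2.06 and 2.07 on WT 1 to 4. On 5 of the 13 pituitary probe sets, of Pomc, Pitx1 and Lhb, BSKO 1 and 2 lay above the other 6 arrays, against 10% of all probe sets. The median interaction value of the 13 was 1.51, and 7 had an unadjusted p under 0.05 in the higher direction, against 2.15% of all probe sets. Prl and Gh were high on WT 3 and 4. On those arrays the highest value of the 7 precursors was 0.441 (Avp on WT 3), and 5 of the 7, Oxt and Avp among them, were higher than on WT 1 and 2. The 7 choroid plexus markers measured of 8 had medians of 0.32, -0.13 and 0.01 on BSKO 1 to 3, -2.06 on BSKO 4 and -0.05 to 0.08 in WT. Of the 8 cerebellar markers, Neurod1 fell without BSKO 2 on both of its probe sets (-1.37 and -1.40), with list medians of -0.16 to 0.09 in BSKO and -0.04 to 0.08 in WT. These were 2 of the 15 cerebellar probe sets, against 1.63% of all probe sets called in either direction. In the comparison of replicate pairs 2 of the 15 passed with 8 arrays, higher in replicates 1 and 2, against 0.0707%. The 5 cortical and hippocampal markers measured of 8 had medians of -0.63 to -0.01 in BSKO, against 0.06 to 0.77 in WT. The part of these markers in the results for the neuropeptide precursors was not tested.

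**Figure D4:**
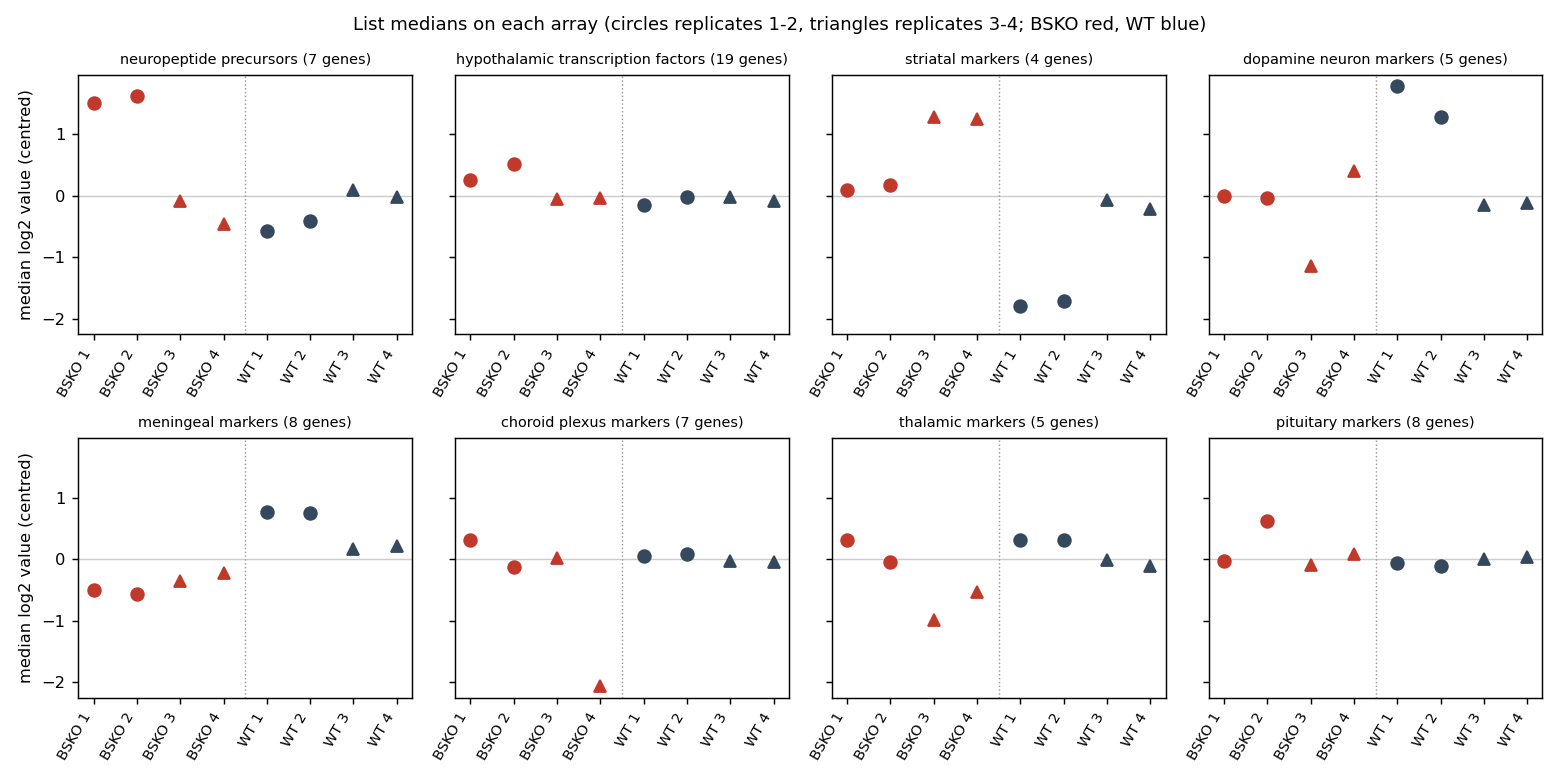
Median log2 value, centred on 0, over the measured genes of a list (vertical axis) on each array (horizontal axis), BSKO in red and WT in blue, with circles for replicates 1 and 2 and triangles for 3 and 4. The neuropeptide precursors are at 1.50 and 1.62 on BSKO 1 and 2 and between -0.57 and 0.09 on the other 6 arrays, while the striatal markers are lowest on WT 1 and 2.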

How the data were processed

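Total RNA of 8 whole brains was hybridised to 8 single-channel arrays, whose number limits the precision. Per the submitters' processing notes the authors ran RMA, and they deposited log2 values; its version is not given in the sources used here. In the values, 22689 of 22690 probe sets had a median within 1e-05 of 0, so they had been centred, a step that no label records. After 64 control probe sets were left out, 22626 were tested with no filter. Symbols came from the platform annotation: 20380 tested probe sets had 1 symbol, 691 several and 1555 none. The gene number matched RefSeq's GRCm38.p6 table for 20351, and no symbol changed.

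The tests, all two-sided, used limma 3.58.1 under R 4.3.3 with lmFit and eBayes, adjusted by Benjamini-Hochberg over all tested probe sets at 0.05. The pairs of replicates were compared in fits with the pair as a term or as an interaction with genotype. With all 70 arrangements of the arrays enumerated, the exact permutation p of the 7 genes was 0.114 to 0.971. The smallest p that this test can reach is 0.0286. Its lowest adjusted p over all probe sets was 0.232, so it called no probe set and cannot decide on single genes after adjustment. Nothing beyond the label of biological replicates says how the mice were kept or the arrays run. Deviations of same-numbered arrays from their genotype means correlated weakly (r = 0.0562 to 0.140). Only 2 of 4 BSKO arrays correlated best with the WT array of their own number, so the numbers were not treated as pairs. Between the genotypes r was 0.0307 to 0.165 within replicates 1 and 2 or within 3 and 4. It was -0.147 to -0.0374 between these pairs of replicates.

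The members and lists were chosen with earlier results of these data known. The text names every member, Sirt1, and in each list the genes that passed the genotype or interaction test. In the lists of precursors, transcription factors, receptors and granule proteins it also names up to 3 of the smallest p. The marker genes of smallest p, and some genes called in the comparison of replicate pairs, are not named. Named as well are 3 genes most like each of the 3 members with the largest SD without BSKO 2. Counts and medians stand in for list tests. The alternatives were quantile normalization, array centring, leaving out cross-hybridising probe sets, array weights, trend and robust settings, the replicate block, the pair of replicates as a term, 1 value per gene, leaving out each array and a threshold of 0.10. The scripts were tested on simulated data, and figures were drawn with matplotlib 3.10.9.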

Additional observations from a re-analysis of the deposited data

Results flagged for a closer look

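For Oxt the genotype difference in replicates 1 and 2 exceeded that in replicates 3 and 4 by 5.33 on the log2 scale, by the interaction term (limma adjusted p = 0.0236). The BSKO mean lay above the WT mean in replicates 1 and 2 (5.08) and below it in replicates 3 and 4 (-0.25). None of the 7 genes had an array far outside the others of its genotype by Dixon's test with 4 arrays. Where 2 arrays stand apart together, as BSKO 1 and 2 did, each hides the other from this test. No conclusion on single arrays is drawn from it.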

How the results depend on the processing

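Of 119 genotype differences of the 7 genes under the alternatives, 42 were fixed by construction, the replicate block included. Of the 77 that could move, 71 kept their direction, and the number of genes called was 0 in each setting. With array weights, which gave BSKO 2 a weight of 0.0456, the difference was 1.34 for Oxt, 0.44 for Cartpt, 0.37 for Gal, 0.034 for Ghrh and -1.89 for Hcrt. The remaining 6 changed sign: Trh, at 0.02 with 8 arrays, was -0.064 after quantile normalization, -0.51 with array weights and -0.27 to 0.32 when 1 array was left out, below 0 without BSKO 1, BSKO 2 or WT 2. Hcrt was -1.47 to 0.24 when 1 array was left out, above 0 without BSKO 3. The cause was not tested.

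Of all probe sets 7 were called with 8 arrays, 678 after quantile normalization, 2617 with array weights, 108 with trend and robust settings, 84 with the pair of replicates as a term, 66 at a threshold of 0.10, 4 without cross-hybridising probe sets, 0 with the replicate block and 0 to 369 when 1 array was left out. With the block, numbers that pair no samples by design, 2 of 4 BSKO arrays correlated best with the WT array of their own number.

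The interaction of genotype and pair of replicates called 4 probe sets and 1 of the 7 genes with 8 arrays, and 29 and 2 (Oxt and Ghrh) after quantile normalization. Leaving out 1 array gave 0 to 10675 probe sets and 0 to 7 of the genes. The highest count came without BSKO 1, when BSKO 2 is alone in its pair and its own spread leaves the error term by construction. All 70 values that could move kept their direction. Pairs of replicates with genotype as a term differed for 437 probe sets and 1 of the 7 genes (Hcrt) after quantile normalization, and for 0 to 175 probe sets and 0 of the genes when 1 array was left out, against 16 and 0 with 8 arrays. Leaving out BSKO 4 raised the genes whose genotypes did not overlap to 2 (Gal and Cartpt), against 15.6% of all probe sets, and leaving out any other array gave 0, against 14.3 to 19.9%. BSKO 1 and 2 lay above the other arrays for 4 of the genes after quantile normalization, against 5.74% of all probe sets. Correlations between the members across arrays, and the alternatives planned for them, were not run, because the arrays fall into clusters. Centring hides the brightness of each probe set, so signal over background is unknown.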
